A study of Mus musculus with 56 samples.

Results

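The comparison described here is that of locked-wheel male mice labelled as a skeletal muscle knockout of HuR (MH) with locked-wheel male controls (MC). All samples whose names in the count table read MH or MC followed by the mouse number were taken, which gave 7 mice in each group, or 14 of the 56 mice of the series. The series measured messenger RNA in whole gastrocnemius, a calf muscle of mixed fibre type, in 8 groups of 7 mice that combine sex, genotype and a locked or a running wheel. Every mouse was C57Bl/6, ate chow and was 5 months old by the labels, which place the wheel in the cage from 10 to 20 weeks of age. In both groups here the wheel was locked. The control mice were littermates that carried the floxed Elavl1 allele without Cre (HuRfl/fl). In the MH mice (HuRm-/-) Cre came from the Myl1 (Mlc1f) locus, whose promoter is active in skeletal muscle fibres, so that vessels, nerve, fat and blood cells in the same piece of tissue keep HuR. MH below always means mice that carry this label. The labels name 7 separate mice per group, and p-values describe the spread between them.

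HuR, the product of Elavl1, is an RNA-binding protein that attaches to AU-rich and U-rich stretches of messenger RNAs and is best known for protecting them from decay. Gastrocnemius fibres are mostly of the fast type, with a minority of slow, oxidative fibres, and each fibre is controlled by a motor nerve at the neuromuscular junction. Liver parenchyma is a different tissue with its own products, among them albumin, the apolipoproteins, the coagulation factors and the cytochromes P450 that handle drugs and steroids. In mice a group of these liver genes, including Cyp4a12a, Elovl3, Cyp2d9 and many of the major urinary protein genes, is expressed mainly in males under the pattern of growth hormone release.

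Total counts per mouse ran from 6803401 to 17488833 in the MC mice and from 10330165 to 18394231 in the MH mice. Levels below are normalized CPM, the counts of a gene for each 1e+06 counts of the scaled library, and fold changes are log2 values of MH minus MC with their standard error (SE). They come from limma on 13486 genes, and a gene was called where its p, adjusted by Benjamini-Hochberg, did not exceed 0.05. CPM is not divided by gene length, so levels of different genes are not compared. Elavl1, on chromosome 8, had 41.0, 52.8 and 60.4 CPM as the lowest, median and highest value of the MC mice and 44.8, 49.5 and 57.4 CPM in the MH mice. The MH range lay inside the MC range, and the log2 fold change was -0.04 (SE 0.09, adjusted p = 0.891). An exact two-sided permutation test of the means over all 3432 arrangements of the 14 mice gave p = 0.544. The deletion thus cannot be seen in these counts, and whether the counted reads lie in the deleted part is not given in the sources used here. By qPCR, the study reported less Elavl1 mRNA in gastrocnemius of HuRm-/- mice than of controls.

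Before the results, MH8 and MH12 have to be set apart. Myl1, the fast myosin light chain whose locus carries the Cre, had between 8608 and 13728 CPM in the 7 MC mice. In the MH mice it had 2271 CPM in MH15, 4405 in MH24, 5361 in MH23, 6334 in MH9 and 6381 in MH11, but 12871 in MH8 and 13443 in MH12. The first 5 lay below every control, and MH8 and MH12 lay within the control range. Over all 7 MH mice the log2 fold change of Myl1 was -0.77 (SE 0.26, adjusted p = 0.169). Without MH8 and MH12 it was -1.19 (adjusted p = 0.0012). MH8 and MH12 were set apart here by their Myl1 level itself. Leaving them out therefore enlarges the Myl1 difference by construction, and the smaller p is no independent support for it.

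The same 2 mice were looked at with genes chosen in other animals. In a fit of the 28 running-wheel mice alone, 408 of 13531 genes (3.02%) were called between male HuRm-/- (MHE) and male control (MCE) mice, and 403 of these averaged at least 1 CPM in the locked males. For each locked male the log2 difference from the MC mean was averaged over the 403 genes, with the sign of the running comparison. This mean ran from -0.042 to 0.060 in the MC mice. It was 0.221 in MH15, 0.266 in MH11, 0.289 in MH23, 0.326 in MH9 and 0.361 in MH24, against -0.012 in MH8 and -0.115 in MH12. Of the 403 genes, 329 (81.6%) had the same sign in MH minus MC as in the running males, and 13 were called in both. MH8 and MH12 therefore did not share the pattern of the other 5 MH mice, in genes whose calls came from other mice and to which the locked males added only the limit of 1 CPM. The group labels were kept as given, and what sets these mice apart was not tested.

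**Figure D1:**
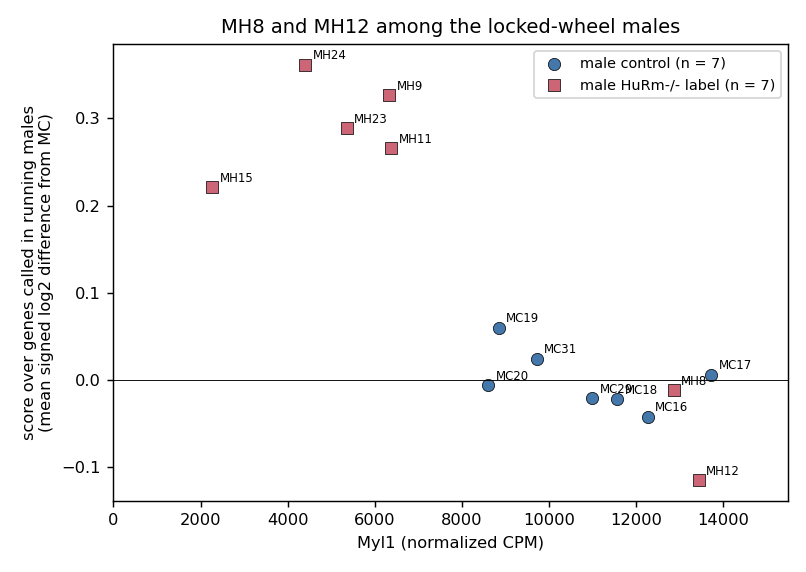
Level of Myl1 in normalized CPM (horizontal axis) against the mean signed log2 difference from the MC mean over the 403 genes called in running males (vertical axis) for each of the 14 locked-wheel males. The 5 other MH mice sit at 6381 CPM or less with scores of 0.221 to 0.361, whereas MH8 and MH12 sit among the controls in Myl1, at 12871 and 13443 CPM. The score of MH8, -0.012, lies among those of the controls, and that of MH12, -0.115, lies below them all.

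Between MH and MC, 60 of the 13486 genes were called, which is 0.445% of those tested. There were 22 genes higher in MH (0.163%) and 38 lower (0.282%), against a median log2 fold change of 0.01 over all genes. An unadjusted p under 0.05 was found for 1925 genes (14.3%). The groups of 7 and 7 did not overlap for 12 of the 60, while among all genes tested 28 lay higher in every MH mouse (0.208%) and 27 lay lower in every MH mouse (0.2%). The count depended on single mice. It was 166 without MH12 and 304 without MH8, and 57 without MC17. It fell to 21 without MC31, 17 without MC29, 15 without MC19, 13 without MC18 or without MH24, 10 without MC20 or without MH15, 9 without MC16, 7 without MH23 and 6 without MH11 or without MH9. Only 5 genes, Cbr2, Mical2, Mpp3, Slc35b1 and Spns2, were called in all 14 of these fits, and each of the other 55 missed the threshold in at least 1, with a highest adjusted p between 0.0550 and 0.136. Of the 60, 9 were called neither by edgeR's quasi-likelihood test nor by DESeq2, namely Amd1, B230312C02Rik, Casp12, Cyp4a12a, Dach2, Elovl3, Serpina1e, Stab2 and Tmf1.

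Leaving out MH8 and MH12 together, an alternative chosen after their values were seen, gave 631 genes of 13898 (4.54%). Of these 270 were higher (1.94%) and 361 lower (2.6%), and all 60 were among them. Removing mice that resemble controls raises a difference by construction, so the larger count is no independent support. Of the 60 genes, 50 had the other 5 MH mice all outside the MC range on one side, and in 16 of those 50 both MH8 and MH12 lay within that range or beyond its opposite end. These 16 include Ache, Amd1, Asb2, Dach2, H19, Map1lc3b, Mybph, Sgcb, Stab2 and Wls. The 60 genes were called in these same mice, so the count of 50 is partly fixed by that choice. The same count over all genes was not made, and the split is no independent support for setting MH8 and MH12 apart.

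**Figure D2:**
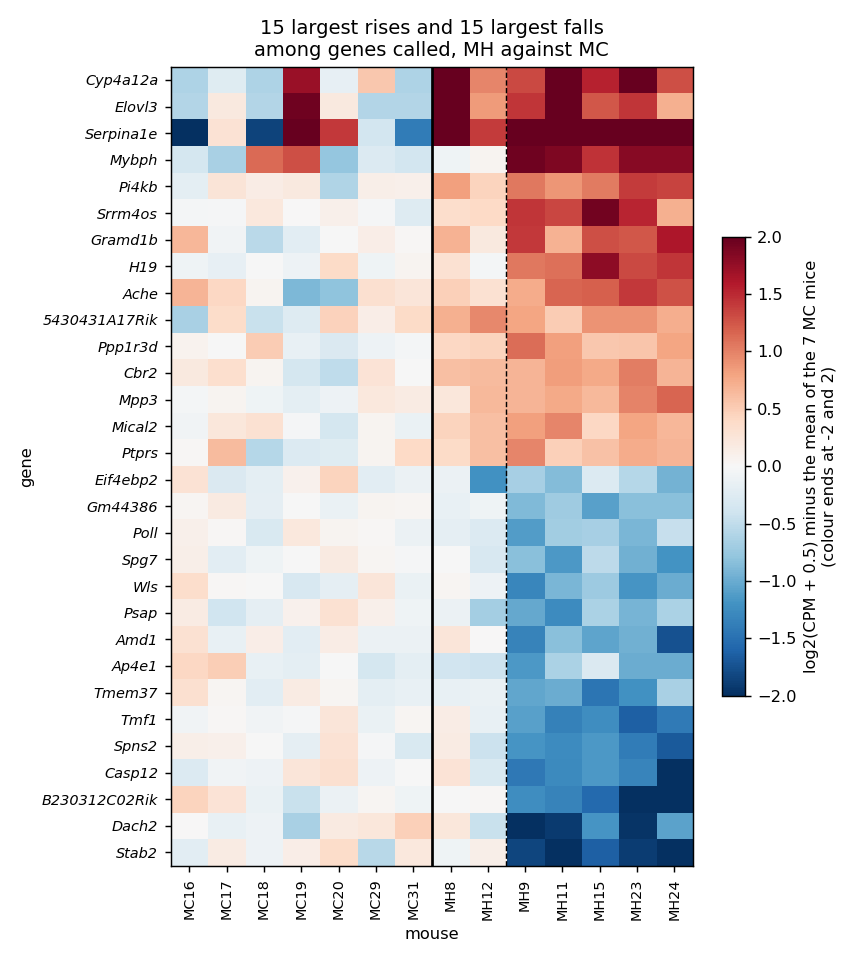
Each row is 1 of the 15 largest rises or 15 largest falls among the genes called, each column a mouse, and the colour gives log2(CPM + 0.5) minus the mean of the 7 MC mice. In H19, Mybph, Ache, Dach2 and Stab2 the columns of MH8 and MH12 look like those of the controls, whereas the liver genes Cyp4a12a, Elovl3 and Serpina1e are high in MH8 too.

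Liver transcripts were more abundant in most MH mice, though with a wide spread. All 24 of the defining liver markers had a positive log2 fold change, with a median of 2.73 and single values from 0.50 (Cyp2e1) to 3.37 (Bhmt). None of the 24 was called and 17 had an unadjusted p under 0.05, beside 0.445% called and 14.3% under 0.05 over all genes. The size depends on the test, since the median was 1.37 with edgeR's quasi-likelihood test and 1.37 with DESeq2 on the same counts, again with 24 of 24 positive. Alb, the gene of serum albumin (chr5:90460897-90476602, plus strand, GRCm38), had 1.62, 18.3 and 261 CPM as the lowest, median and highest level in the MC mice and 47.0, 92.4 and 346 CPM in the MH mice. The MC mouse at 261 CPM was MC19, the 6 others lay below every MH mouse, and the groups overlapped through that mouse. The log2 fold change was 2.96 (SE 1.05, adjusted p = 0.197).

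The summed level of the 24 markers was 15.3 CPM in MC18, 17.7 in MC16, 35.5 in MC29, 62.5 in MC31, 64.7 in MC17, 142 in MC20 and 847 in MC19. In the MH mice it was 134 in MH12, 203 in MH24, 266 in MH9, 279 in MH15, 603 in MH23, 692 in MH11 and 940 in MH8. Thus 5 MC mice lay below all 7 MH mice, MC20 lay just above the lowest of them, and MC19 lay among the highest. MH8, which resembled the controls in its muscle genes, was the highest of the 14, and the median over the 24 markers was 2.74 without MH8 and MH12, so the liver difference did not follow the division seen in Myl1. Leaving out 1 mouse at a time gave medians from 2.31 without MC16 to 3.39 without MC19. How liver RNA came into these samples was not tested.

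The promoters of Alb and of Serpina1e, a called liver gene described below, are shown as examples of liver promoters. The promoter set used held no entry for Cyp4a12a and Elovl3, the other called liver genes. Both sequences are the 250 bases before the RefSeq transcription start on GRCm38.p6, written 5′ to 3′ on the strand of the gene, and the capitals mark the letters GTTAAT, one arm of the palindrome bound by the liver factor HNF1.
Alb, chr5:90460620-90460869, plus strand: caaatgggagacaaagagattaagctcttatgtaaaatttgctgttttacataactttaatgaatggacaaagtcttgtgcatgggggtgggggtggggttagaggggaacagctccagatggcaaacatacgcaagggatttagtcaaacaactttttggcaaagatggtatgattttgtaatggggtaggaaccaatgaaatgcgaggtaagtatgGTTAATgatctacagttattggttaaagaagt
Serpina1e, chr12:103956898-103957147, minus strand: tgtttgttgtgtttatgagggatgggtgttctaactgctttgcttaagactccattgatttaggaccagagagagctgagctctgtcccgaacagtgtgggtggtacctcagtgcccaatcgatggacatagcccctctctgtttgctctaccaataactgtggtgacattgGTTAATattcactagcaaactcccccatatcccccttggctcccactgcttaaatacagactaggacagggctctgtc
The first letter of the match lies at -32 from the start of Alb and at -78 from that of Serpina1e. Searched on both strands, these 6 letters occurred in 4 of the 18 defining liver markers with an entry (22.2%) and in 29 of 144 genes over all the liver lists (20.1%). They occurred in 508 of 10093 genes tested (5.03%) and in 2023 of the 27025 promoters of the table (7.49%). A match describes the letters of the window and is not evidence of binding. These shares compare liver genes with all genes tested and say nothing about the difference between MH and MC.

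Over all liver lists, with each gene counted once, 196 genes were listed, 171 were in the table and 150 were tested. Of these, 140 had a positive log2 fold change, compared with 51.3% of all genes, and the median was 2.18 against 0.01. Only 3 were called, all higher, and 72 had an unadjusted p under 0.05. Across the 14 mice the log2 levels of the 150 genes had a median correlation of 0.88 with that of Alb. The liver genes thus varied together from mouse to mouse. Counts of positive genes, here and in the single liver lists, are therefore not counts of independent results. With edgeR's quasi-likelihood test no liver-list gene was called, and with DESeq2 only Oat was, which was lower in MH. All 27 tested plasma carriers and protease inhibitors were positive (median 2.44), as were the 14 apolipoproteins and lipoprotein enzymes (median 2.58) and the 17 coagulation factors (median 2.42). In the last list F2, prothrombin, had 3.60, and Fgb, a fibrinogen chain, had 2.97 with 0.219, 1.68 and 53.1 CPM in the MC mice and 6.83, 16.1 and 59.9 CPM in the MH mice (adjusted p = 0.284). MC19 held the highest MC level of Fgb and MH8 the highest MH level.

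Enzymes of drug and steroid metabolism were positive in 31 of 32 (median 2.18, 1 called), enzymes of the urea cycle and amino acid catabolism in 20 of 22 (median 2.12), and bile acid synthesis and hepatic transport in 8 of 10 (median 1.99). The exceptions were genes with a level of their own in this muscle. Abcb4, a phospholipid transporter, had 123 to 183 CPM in MC and 119 to 163 CPM in MH, with a log2 fold change of -0.03, and Cyp27a1, a sterol hydroxylase, had -0.23. Complement components were positive in 14 of 15 with a median of 1.63. Here C6 (2.92) and C9 (2.41), of the membrane attack complex and made in liver, stood against C3 (0.32), which reached 18.3 to 46.4 CPM in MC and 24.4 to 55.1 CPM in MH. Among 7 acute phase proteins 6 were positive (median 1.70), from 2.82 for Saa1 to -0.03 for Lbp. Genes of the periportal end of the liver lobule were positive in 6 of 8 (median 1.04) and those of the pericentral end in 6 of 8 (median 1.88). None of these lists except the enzymes of drug and steroid metabolism, with Cyp4a12a, and the plasma carriers, with Serpina1e, had a called member.

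The 3 called liver genes all belong to the list of male-predominant liver genes, in which 9 of 9 were positive with a median of 3.41 and 9 had an unadjusted p under 0.05. Cyp4a12a, an omega-hydroxylase of arachidonic acid (chr4:115299046-115332815, plus strand), had 0, 0.145 and 2.02 CPM in the MC mice and 1.01, 1.71 and 5.08 CPM in the MH mice. MC19 was the control at 2.02 CPM and the 6 others were below all MH mice. The log2 fold change was 3.76 (SE 0.71, adjusted p = 0.0139). Elovl3, a fatty acid elongase (chr19:46131897-46135694, plus strand), had 0, 0 and 2.40 CPM in MC and 0.726, 1.52 and 3.09 CPM in MH, with a log2 fold change of 3.41 (SE 0.69, adjusted p = 0.0258). It is also on the list of brown adipocyte markers, of which Ucp1 was not in the table. Serpina1e, an alpha-1-antitrypsin gene (chr12:103946931-103958975, minus strand), had 0.649, 3.34 and 80.8 CPM in MC and 12.6, 26.5 and 67.2 CPM in MH, with a log2 fold change of 3.03 (SE 0.67, adjusted p = 0.0408). In this gene the highest mouse of the 14 was MC19.

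These calls rest on few reads and on the test. The mean count per mouse was 19 for Cyp4a12a and 14 for Elovl3, against 338 for Serpina1e. With edgeR's quasi-likelihood test on the same counts the adjusted p was 0.128, 0.201 and 0.413, so that none of the 3 was called. Over the fits that left out 1 mouse, Cyp4a12a was called in 13 of 14 and missed only without MC31, whereas Elovl3 was called in 4 and Serpina1e in 3. Of the bases of Cyp4a12a that could give a 50-base read, 48.9% are shared with Cyp4a12b, and of Serpina1e 35.6% with its near copies, so their counts can be split among these genes. Mup12, a major urinary protein gene with 85.4% shared, had a log2 fold change of 3.75 (adjusted p = 0.0685), Cyp2d9 had 3.41 (adjusted p = 0.0674) and Mup3 had 3.65 (adjusted p = 0.147).

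The share of male-predominant genes among the liver transcripts went with the sex of the mouse they were found in. The male-predominant genes came to 16.1% to 26% of the liver marker sum in the 9 locked males with a sum of at least 100 CPM, which were the 7 MH mice, MC19 and MC20. They came to 1.38% to 4.09% in the 11 locked females above the same limit. The limit was chosen after the values were seen. Over all 28 mice, many with few liver counts, the share was 4.37% to 26% in males and 1.38% to 4.98% in females. Cyp4a12a had 0 counts in all 14 locked females, where a count of 3 would correspond to 0.193 to 0.363 CPM. One of these, FC15, had the highest liver marker sum of the 28 locked mice at 3734 CPM and a limit of 0.282 CPM. In the 9 males Cyp4a12a had 0.181 to 5.08 CPM. Elovl3 had 0 to 0.0878 CPM in the 11 females and 0.361 to 3.09 CPM in the 9 males, and Cyp2d9 had 0 to 0.356 CPM and 0.621 to 8.81 CPM. Female samples with more liver RNA than any male sample thus held Cyp4a12a, Elovl3 and Cyp2d9 at or near 0. Other members of the list were not near 0 there. Mup3 had 48.6 CPM and Serpina1e 23.7 CPM in FC15, against 52.7 and 67.2 CPM in MH8. Of 14 listed female-predominant liver genes 2 were in the table. The only one tested, Cux2, had a log2 fold change of 0.95 in MH minus MC and was not called.

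**Figure D3:**
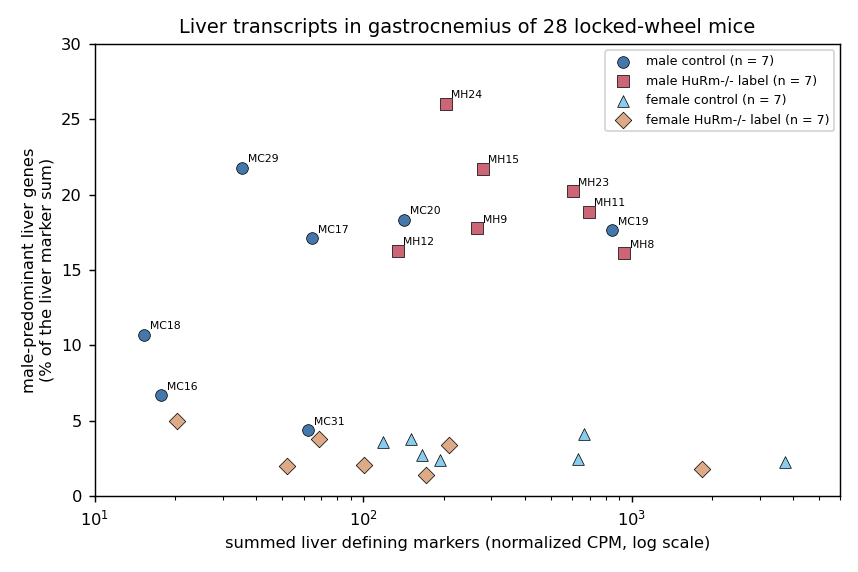
Summed liver defining markers in normalized CPM on a log axis against the male-predominant liver genes as a percentage of that sum, for each of the 28 locked-wheel mice. The 9 males with a sum of at least 100 CPM lie between 16.1% and 26%, and the 11 females above the same limit between 1.38% and 4.09%, up to the female at 3734 CPM.

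The proportions of liver genes to one another were also looked at. Alb made up 31.2% to 36.8% of the liver marker sum in the 7 MH mice and 30.8% in MC19, while it was 9.15% in MC16, the MC mouse with the next to lowest sum. Ttr, transthyretin, which the choroid plexus of the brain also makes, had 0.208 to 0.308 times the counts of Alb in the MH mice. In MC29 this ratio was 2.67, at an Alb level of only 6.53 CPM. MC29 was also the MC mouse with the most Snap25, a synaptic protein, at 10.8 CPM. MH9 and MH24 had more Snap25, at 73.9 and 34 CPM, but ratios of 0.303 and 0.308. The source of Ttr was not tested. Few markers of liver cells other than hepatocytes were in the table, whose lowest total for a gene was 168 counts over the 56 mice. Weak markers can fall below that limit, so their absence does not show that these cells were missing. Of 5 Kupffer cell markers 3 were in the table, and the only one tested, Timd4, had a log2 fold change of -0.46. Of 5 markers of liver sinusoid cells 2 were in the table, and both were tested. Stab2 fell, opposite to the hepatocyte genes, and Reln had 0.42.

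Liver transcripts were also present in the other groups, without a common direction. The liver marker sum was 118 to 3734 CPM in female controls (median 194) and 20.2 to 1835 CPM in female HuRm-/- mice (median 101). The median over the 24 markers was -2.16 for females, with 0 of 24 positive, and 1.13 for running males, with 24 of 24 positive. No gene was called between female HuRm-/- mice and female controls (0%; 1770 with an unadjusted p under 0.05), and the adjusted p of the 3 liver genes was 0.561 or more in females and 0.601 or more in running males. Adding the mean of the liver markers as a covariate took the median over the 24 markers to 0.19 and left 4 called genes in MH against MC. The covariate is made of these same 24 markers, so the fall of their median follows by construction. Liver markers were also higher in most MH mice, so the covariate overlaps with the genotype label. No conclusion is drawn from the lower number of calls. The male-predominant list kept a median of 1.12 in that fit, none of its members being called.

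**Figure D4:**
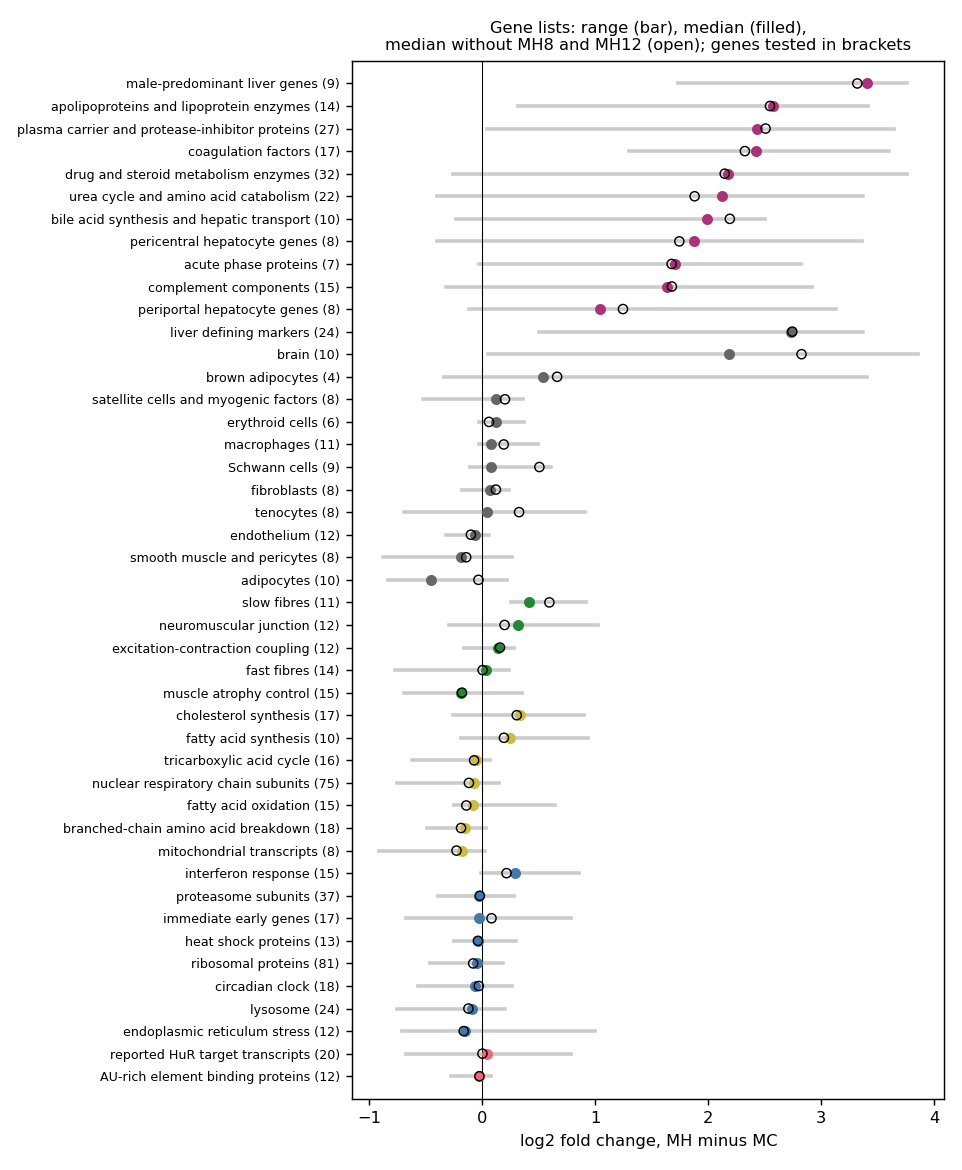
For each gene list with at least 4 genes tested, the grey bar spans the log2 fold changes (MH minus MC) of its members, the filled point is their median and the open point the median without MH8 and MH12. The liver lists lie between 1.04 and 3.41 and the brain list at 2.18, while the lists of muscle, metabolism and general cell functions lie within 0.5 of 0.

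Brain markers were also more abundant in some MH mice. Of 12 listed markers 10 were tested and all were positive, with a median of 2.18 and none called, and where these reads came from was not tested. Snap25 had 0, 0.0903 and 10.8 CPM in the MC mice and 0.428, 3.02 and 73.9 CPM in the MH mice (log2 fold change 3.85, SE 2.21, adjusted p = 0.433). The highest MH mice were MH9 at 73.9 CPM and MH24 at 34 CPM, whose liver marker sums of 266 and 203 CPM were among the lower ones of the group. Syt1, a calcium sensor of synaptic vesicles, read the same way with 0.428 to 125 CPM in MH and 0 to 15.5 CPM in MC. Camk2a, which this muscle also expresses, had 287 to 508 CPM in MC and 345 to 428 CPM in MH and a log2 fold change of 0.05. Without Camk2a the summed level of the brain list was 3.10 to 96.5 CPM in MC and 7.00 to 694 CPM in MH. Pcsk2 and Chga, of neuroendocrine cells and on the islet list, had log2 fold changes of 2.81 and 2.07, with their highest summed list level in MH9 (31 CPM) and MH24 (13.8 CPM).

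Over the whole comparison there were 580 genes (4.3%) with a log2 fold change of at least 1 and only 48 with -1 or less. Of the 580, 118 are on the liver lists. Only 8 of the 580 were called. Markers of small intestine (10) and testis (6) were absent from the table. As it holds no gene below 168 counts over the 56 mice, this does not show that they were absent from the tissue. Of 26 markers of pancreatic acini 2, Cuzd1 and Spink1, were in the table and neither passed the filter, and of 11 kidney markers 4 were in the table.

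Among muscle genes, those of slow fibres were higher in some MH mice without any being called. All 11 had a positive log2 fold change, with a median of 0.42, and 8 had an unadjusted p under 0.05. Without MH8 and MH12 the median was 0.60 and 7 were called, in a comparison where 4.54% of genes were. Myh7, the slow myosin heavy chain, had 35.0, 43.2 and 71.5 CPM in MC and 40.1, 69.1 and 143 CPM in MH (log2 fold change 0.71, SE 0.22, adjusted p = 0.139). Myl2, its regulatory light chain, had 81.4, 102 and 134 CPM in MC and 94.5, 201 and 360 CPM in MH (0.91, SE 0.23, adjusted p = 0.0561). Tnnc1, slow troponin C, had 62.4, 80.7 and 127 CPM in MC and 90.8, 143 and 250 CPM in MH (0.79, SE 0.21, adjusted p = 0.075). Each overlapped between the groups. The summed level of the 11 genes was 1037 to 1444 CPM in MC. In MH it was 1083 in both MH8 and MH12, 1234 in MH11, 1585 in MH9, 2150 in MH23, 2448 in MH24 and 2822 in MH15, so that 4 of 7 MH mice exceeded every control. In whole muscle, more slow fibres and more slow RNA per fibre cannot be told apart, and the same holds for every cell type below.

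The 14 fast-fibre genes had a median of 0.04 and none was called. Myh4, the fastest and most abundant myosin heavy chain, had 27302 to 34789 CPM in MC and 24109 to 36130 CPM in MH (log2 fold change -0.01). Apart from Myl1 at -0.77, the 14 lay between -0.10 and 0.23. The 12 tested genes of excitation-contraction coupling were positive in 11 (median 0.14), none called, with Ryr1, the calcium release channel, at 0.29. Among 15 genes of muscle atrophy control 11 were negative (median -0.19) and none was called. Fbxo32, a ubiquitin ligase of wasting muscle, had 303 to 1127 CPM in MC and 196 to 338 CPM in MH (-0.69, adjusted p = 0.169). The value of 1127 CPM was that of MC20, and the next control had 510.2 CPM.

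Genes of the neuromuscular junction included 1 call among 12 tested, with 8 positive and a median of 0.32. Ache, the acetylcholinesterase that clears the transmitter (chr5:137287519-137294466, plus strand), had 2.60, 6.33 and 8.76 CPM in MC and 6.6, 12.4 and 14.9 CPM in MH. Of the 7 MH mice 5 lay above every control, and MH8 and MH12 within the control range. Its log2 fold change was 0.97 (SE 0.23, adjusted p = 0.0491), and in running males it was 1.05 (adjusted p = 0.020). Chrne, the adult subunit of the acetylcholine receptor, had 2.40, 3.49 and 5.26 CPM in MC and 3.64, 7.14 and 10.3 CPM in MH (1.02, SE 0.25, adjusted p = 0.0557), and Chrna1, the alpha subunit, had 0.52. Musk (-0.08), Rapsn (-0.09) and Dok7 (0.04), which assemble the receptor cluster, had values near 0. Dach2, a repressor that links nerve activity to junction genes, fell. It had 5.58, 9.08 and 12.7 CPM in MC and 1.84, 3.68 and 10.6 CPM in MH (-1.37, SE 0.31, adjusted p = 0.0436, but 0.128 with edgeR's quasi-likelihood test and 0.105 with DESeq2). The MH mice within the control range were MH8 and MH12. The summed level of the 12 genes was 114 to 132 CPM in MC, 128 in MH12, 132 in MH8 and 150 to 160 CPM in the other 5 MH mice. Without MH8 and MH12, Ache, Chrne and Chrna1 were called, in a comparison where 4.54% of all genes were.

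**Figure D5:**
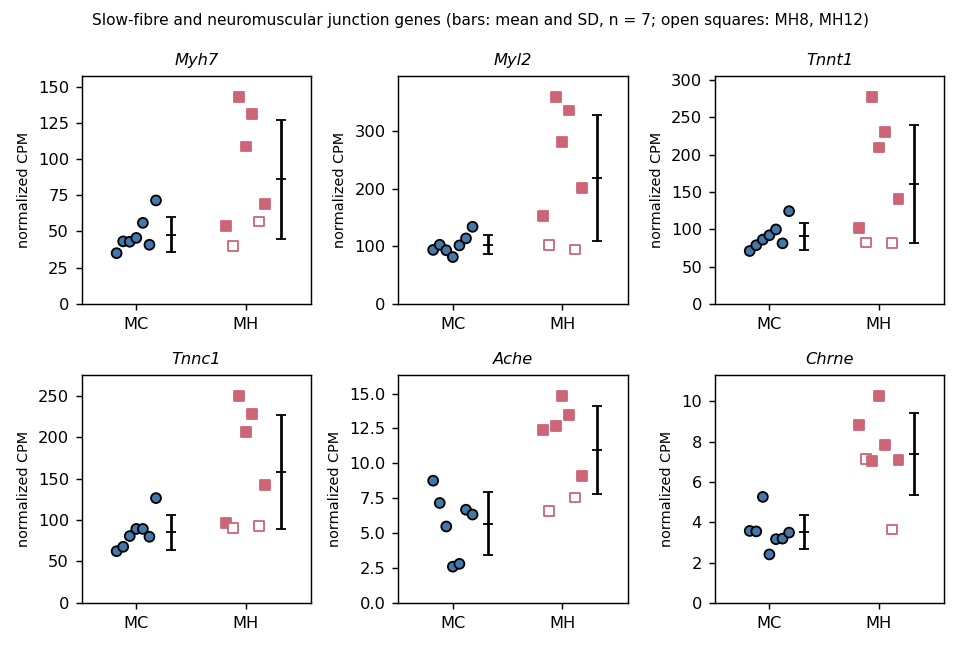
Normalized CPM of 4 slow-fibre genes and 2 junction genes in each MC and MH mouse, with bars for mean and SD (n = 7). In Ache the open squares of MH8 and MH12 lie below the other 5 MH mice, and in the 4 slow-fibre genes they lie within the range of the controls.

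Of the other called genes, again chosen from the calls and not from a list, Mybph, a myosin-binding protein of the thick filament, had 26.4, 35.4 and 112 CPM in MC and 42.9, 161 and 176 CPM in MH, and rose (1.29, SE 0.30, adjusted p = 0.0491). Mical2, an enzyme that oxidises actin, had 20.6, 26.1 and 32.7 CPM in MC and 35.6, 42.2 and 52.4 CPM in MH, without overlap, and rose (0.69, SE 0.11, adjusted p = 0.00926). Rock1, a kinase that controls actin contraction, rose by 0.57 on the log2 scale. Sgcb, a sarcoglycan of the complex missing in a limb-girdle dystrophy, had 49.8, 59.0 and 60.1 CPM in MC and 33.4, 37.9 and 56.9 CPM in MH and fell (-0.49, adjusted p = 0.0408). Cd151, a tetraspanin partner of integrins, fell from 67.5, 76.2 and 80.6 CPM to 48.0, 52.2 and 67.4 CPM, without overlap (-0.45, SE 0.08, adjusted p = 0.0138). Mpp3, a scaffold protein of cell junctions, had 10.8, 12.1 and 14.4 CPM in MC and 14.6, 20.2 and 28.3 CPM in MH and rose without overlap (0.74, SE 0.13, adjusted p = 0.00926).

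Some called genes make RNA without a protein. H19, an imprinted RNA of fetal and regenerating muscle (chr7:142575529-142578143, minus strand), had 198, 209 and 288 CPM in MC and 215, 475 and 762 CPM in MH (0.99, SE 0.21, adjusted p = 0.0361). MH12 at 215 and MH8 at 273 CPM lay within the control range, and the other 5 at 457 CPM or more lay above it. Malat1, an abundant nuclear RNA, had 2018, 2333 and 2837 CPM in MC and 2549, 3672 and 4006 CPM in MH (0.59, SE 0.12, adjusted p = 0.0258), where only MH12 lay within the control range. Srrm4os runs antisense to Srrm4, and how strand entered the counting is not given in the sources used here, so its call at 1.22 may include reads of that gene. Among the falls were B230312C02Rik (-1.25) and A430018G15Rik (-2.06), the latter with a mean of 9.93 counts and opposite to Cacnb4.

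Further called genes are given singly, chosen from the calls and not from a list. Cbr2, a carbonyl reductase, had 38.4, 56.9 and 69.4 CPM in MC and 83.8, 88.5 and 112 CPM in MH, so that every MH mouse, MH8 and MH12 included, was above every control (0.76, SE 0.13, adjusted p = 0.00926). Gramd1b, a cholesterol carrier between membranes, had 3.07, 4.60 and 7.68 CPM in MC and 5.43, 11.6 and 15.3 CPM in MH and rose (1.09, SE 0.25, adjusted p = 0.0491). Spns2, which exports sphingosine 1-phosphate, fell from 30.1, 37.3 and 46 CPM to 11.3, 16.3 and 41.9 CPM (-0.99, SE 0.17, adjusted p = 0.00926), where MH8 alone overlapped. Vldlr, a lipoprotein receptor, had 342, 374 and 619 CPM in MC and 212, 242 and 355 CPM in MH and fell (-0.66, SE 0.13, adjusted p = 0.0184). Psap, the precursor of the saposins that help degrade sphingolipids in lysosomes, fell by 0.75 on the log2 scale (adjusted p = 0.0392). Wls, which carries Wnt proteins to the surface, fell by 0.74 and Ctnnb1, the beta-catenin of the same pathway, by 0.28. For Ctnnb1 the levels were 155, 156 and 177 CPM in MC and 117, 125 and 159 CPM in MH.

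Stab2, an endocytic receptor of hyaluronan that marks sinusoidal endothelium (chr10:86841198-87008025, minus strand), fell most among called genes that averaged at least 10 counts. It had 3.64, 6.15 and 7.31 CPM in MC and 0.363, 1.19 and 6.05 CPM in MH (-1.92, SE 0.35, adjusted p = 0.0122). The values of 5.22 CPM in MH8 and 6.05 CPM in MH12 lay among the controls, and the other 5 MH mice had 1.46 CPM or less. In running males the log2 fold change was -1.68 (adjusted p = 0.00589). Its call was lost with edgeR's quasi-likelihood test (adjusted p = 0.133) and DESeq2 (0.0775). Stab2 was named for liver sinusoids, and its direction was opposite to that of the hepatocyte genes in the same mice.

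Casp12, a caspase linked to the endoplasmic reticulum, had 54.0, 62.1 and 81.7 CPM in MC and 15.8, 26.7 and 78.9 CPM in MH and fell (-1.04, SE 0.23, adjusted p = 0.0394). Tmf1, a Golgi protein, had 53.3, 57.5 and 69.5 CPM in MC and 18.6, 24.5 and 65.4 CPM in MH and fell (-0.97, SE 0.22, adjusted p = 0.0408). In both genes MH8 lay within the control range and MH12 just below it, at 53.0 CPM for Casp12 and 52.8 CPM for Tmf1. With edgeR's quasi-likelihood test and DESeq2 the adjusted p was 0.0961 and 0.0701 for Casp12 and 0.0926 and 0.0565 for Tmf1. Amd1, S-adenosylmethionine decarboxylase of polyamine synthesis, had 354 to 503 CPM in MC, 410 in MH12, 482 in MH8 and 122 to 230 CPM in the other MH mice (-0.81, SE 0.19, adjusted p = 0.0491, but 0.114 and 0.0983 with the other tools). For Amd1 87.6% of the possible 50-base reads are shared with Amd2 or pseudogenes, so the fall may belong to any of them. Map1lc3b, of the autophagosome membrane, fell by 0.54, Asb2, a ubiquitin ligase subunit of muscle, by 0.48 and the translation regulators Eif1 and Eif4ebp2 by 0.43 and 0.66. Slc35b1, a nucleotide carrier of the endoplasmic reticulum, rose without overlap from 41.6, 42.5 and 50.1 CPM to 51.4, 60.8 and 66.7 CPM (0.40, SE 0.07, adjusted p = 0.0108).

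Genes of mitochondrial metabolism were mostly on the negative side by small amounts. Of 75 nuclear subunits of the respiratory chain 63 had a negative log2 fold change (median -0.07) and 1 was called, against 7 without MH8 and MH12. Over all genes 0.445% were called, and 4.54% without MH8 and MH12, whose removal raises differences by construction. Ndufs4, of complex I, had 147, 155 and 171 CPM in MC and 115, 131 and 143 CPM in MH, and fell without overlap (-0.28, SE 0.06, adjusted p = 0.0408). Of the 8 transcripts of the mitochondrial genome 7 were negative (median -0.18, none called, 2 without MH8 and MH12). Genes of the tricarboxylic acid cycle were negative in 13 of 16 (median -0.05) and those of fatty acid oxidation in 10 of 15 (median -0.08), with no call. Acat1, a thiolase of ketone and isoleucine breakdown, had 214, 242 and 280 CPM in MC and 155, 163 and 241 CPM in MH and was called (-0.48, SE 0.11, adjusted p = 0.0491).

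In the breakdown of branched-chain amino acids, 16 of 18 genes were negative, with a median of -0.16 and none called. Without MH8 and MH12, where 4.54% of all genes were called, 2 of the list were, Bcat2 and Pcca. Bcat2, the transaminase that starts the pathway, had 8.13, 8.87 and 12.5 CPM in MC and 5.22, 6.56 and 7.55 CPM in MH, without overlap (-0.49, SE 0.13, adjusted p = 0.0655). Aldh6a1, of valine breakdown, also did not overlap (-0.33, adjusted p = 0.246). Cholesterol synthesis went the other way, with 16 of 17 genes positive, a median of 0.33 and none called. Msmo1, a sterol oxidase, had 6.22, 6.85 and 7.49 CPM in MC and 7.99, 9.48 and 12.9 CPM in MH, without overlap (0.43, adjusted p = 0.181). The summed level of the 18 genes was 122 to 146 CPM in MC and 144 to 182 CPM in MH, overlapping through MH12 and MC16. Liver makes cholesterol too, and its share in these values was not tested. Fatty acid synthesis was positive in 7 of 10 (median 0.24, none called), led by Scd2, a desaturase, at 0.93.

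The lysosome list had 19 of 24 genes on the negative side (median -0.09) and 1 called, Psap. Without MH8 and MH12, where 4.54% of all genes were called, 4 of the list were. Ctsd, a protease of the lysosome, had 342, 372 and 410 CPM in MC and 222, 263 and 427 CPM in MH (-0.40, adjusted p = 0.0728). The summed level was 2091 to 2293 CPM in MC and 1662 to 2116 CPM in MH, with MH12 the highest MH mouse and the only one within the control range. The interferon response was positive in 13 of 15 (median 0.29) and ribosomal proteins negative in 56 of 81 (median -0.04), both without a call. No gene was called among 37 proteasome subunits (median -0.03), 18 clock genes (-0.06), 12 genes of endoplasmic reticulum stress (-0.15), 13 heat shock proteins (-0.04) and 17 immediate early genes (-0.03).

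Markers of the other cells of muscle had medians near 0 and no call. These were macrophages (11 tested, median 0.08), endothelium (12, -0.06), fibroblasts (8, 0.07), smooth muscle and pericytes (8, -0.18), Schwann cells (9, 0.08), tenocytes (8, 0.04), satellite cells and myogenic factors (8, 0.13), neutrophils (2, 0.17) and erythroid cells (6, 0.12). Adipocyte markers were negative in 9 of 10 with a median of -0.45, which was -0.03 without MH8 and MH12. Their summed level was 167 to 347 CPM in MC and 143 to 326 CPM in MH, which overlap almost entirely, and Adipoq, the adiponectin gene, had -0.63 (SE 0.46, adjusted p = 0.555). Of 8 lymphocyte markers only Ighm was tested, at -0.72 (adjusted p = 0.169). Myod1, the myogenic factor, had 20.4, 27 and 28.2 CPM in MC and 13.6, 19 and 24.1 CPM in MH (-0.49, adjusted p = 0.138).

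Transcripts named as HuR targets in textbook accounts were also counted. Of 20 tested, 11 were positive and 9 negative, with a median of 0.04, and none was called. Their range ran from -0.67 for Myc to 0.79 for Fos, and Vegfa, the vascular growth factor, had 74.3 to 105 CPM in MC and 73.9 to 120 CPM in MH (0.04). Without MH8 and MH12, where 4.54% of all genes were called, 5 of the 20 were. These were Fos (1.07), Cdkn1a (0.71) and Mcl1 (0.29), which were higher, and Bcl2 (-0.49) and Myod1 (-0.62), which were lower, around a median of 0.00. Of 12 genes of other proteins that bind AU-rich RNA, 9 were negative, with a median of -0.03 and none called.

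The genotype difference was set against that of the other sex and the other wheel. No gene was called in the interaction of genotype with sex in limma, where 926 genes had an unadjusted p under 0.05, and none in edgeR (1069) or DESeq2 (1006). In the interaction of genotype with the wheel among males, 5 of 14321 genes were called (0.0349%). Senp3, a SUMO protease, had 10.4, 11.8 and 16.4 CPM in MC and 3.10, 7.72 and 11.4 CPM in MH, a log2 fold change of -0.79 (adjusted p = 0.0655), and 0.81 in running males. Slc25a11, the oxoglutarate carrier of mitochondria, lay higher in every MH mouse, at 115 to 139 CPM against 100.5 to 114 CPM in MC (0.22, adjusted p = 0.0771), and had -0.22 in running males. Cd59a, an inhibitor of complement, had 0.30 in locked and -0.61 in running males, and Inpp5k, a phosphatase of phosphoinositides, -0.22 and 0.37. The fifth was Ins1, an insulin gene of the pancreas with 0 to 2 counts in each of the 14 locked males. With edgeR's quasi-likelihood test none of the 5 was called (1495 with an unadjusted p under 0.05). In that fit of all 56 mice, from which the values for running males in this text come, MHE and MCE differed in 376 genes (2.63%), beside the 408 in the fit of the running mice alone.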

How the data were processed

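RNA from whole gastrocnemius of 56 mice was sequenced, and the 14 locked-wheel males are compared here. The authors deposited 1 table of raw counts, whole numbers of reads per gene for 15539 genes, without normalization. Per the labels, libraries were made with a QuantSeq 3′ kit and read for 50 bases from 1 end, whereas the study's methods describe stranded total RNA. The submitters' processing notes name GRCm38 (mm10), R 4.0.3 and edgeR 3.38.4, and the aligner is not given in the sources used here. Groups came from sample titles. In R 4.3.3, counts of the 28 locked mice were normalized by TMM and filtered with filterByExpr (edgeR 4.0.16), and MH was compared with MC by voom and limma 3.58.1 in a model of 4 groups. Adjusted p-values are Benjamini-Hochberg over all genes tested. The running score used a fit of the 28 running mice, and the wheel interaction and fold changes of running males one of all 56.

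The alternatives were edgeR's quasi-likelihood test, DESeq2 1.42.0, limma-trend, other scalings, filters, samples, weights, a liver covariate and each mouse left out. Leaving out MH8 with MH12, or MH9 with MH24, was added after seeing the data. Tested on simulated data, 200 of 13486 genes being altered, the main test found 160 of them (80%) and made 2 false calls among 162. It recovered 105 of 114 genes changed by 2 on the log2 scale and 55 of 86 changed by 1. The simulation drew each gene independently, without shared liver RNA or mice like MC19, MH8 or MH12. These rates therefore need not hold for the comparison itself. Genes were named by rule: Elavl1 and Myl1, the 15 largest rises and 15 largest falls among calls with a mean of at least 10 counts, called and most abundant members of each list (the 4 highest, 8 for liver lists), and interaction genes. Other genes, among them those of liver lists below these ranks, Ctsd, Bcat2, Msmo1 and the called genes outside the 30, were named after their values were seen. The comparison, the 56 gene lists and the named rule were chosen with earlier results of these data known. Each mouse was 1 replicate, since all 42 pairs within a group differed by more than sampling noise, with a chi-square of 4.69 to 36.5 for each degree of freedom. Shared reads were judged by 50-base windows of the transcripts, and promoters came from RefSeq. The result of 1 gene is left out of the text.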

Additional observations from a re-analysis of the deposited data

Results flagged for a closer look

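In groups of 7 mice, 254 gene levels and list sums were examined for a mouse that stood apart from the other 6 by Dixon's criterion. In 44 (17.3%) a mouse did, where chance gives about 1 in 20 for independent, normally distributed values. Levels in CPM are skewed and the lists contain some of the single genes, so the excess does not measure a departure from chance. Of the 44, 36 were in MC and 8 in MH. MC19 accounted for 18, nearly all of them liver. In that mouse the normalized CPM was 2.02 for Cyp4a12a, 2.40 for Elovl3, 80.8 for Serpina1e, 261 for Alb, 78.8 for Apoa1, 43.4 for Mup3, 3.75 for Mup12 and 7.50 for Cyp2d9. Its list sums in CPM were 847 for liver defining markers, 1009 for plasma carriers, 252.5 for apolipoproteins, 152 for coagulation factors, 114 for complement, 245 for drug and steroid enzymes, 137 for urea cycle and amino acid catabolism, 149.6 for male-predominant liver genes and 46.1 for periportal genes. The erythroid list stood apart in the same mouse, at 1910.

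The other control mice that stood apart did so for single genes or lists. MC20 was high for H19 (288 CPM), Osgep (28.6), Epb41l4aos (15.7), Vldlr (619) and the atrophy list (2288). MC18 was high for Ppp1r3d (6.02), Ctnnb1 (177) and Chrne (5.26) and low for Cd151 (67.5). MC16 was high for Cisd3 (52.3) and the Kupffer list (2.60). MC29 was high for Snap25 (10.8), islets (3.19), kidney (20.5) and heart (6.22), and MC31 for Tnnc1 (127), adipocytes (347) and Schwann cells (325).

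Among the MH mice, MH12 was low for Malat1 (2549 CPM). MH9 was low for Tmem246 (25) and high for the lists of brain (1073), heart (15.7) and pericentral genes (453). The pericentral list shares Slc1a2 with the brain list. Its sum was 227 to 397 CPM in MC, where the liver marker sum ran from 15.3 to 847 CPM. The liver marker sum of MH9 was 266 CPM, so its pericentral sum is not a measure of liver. MH23 was high for acute phase proteins (105), MH24 was high for brown adipocyte genes (17.9) and low for excitation-contraction coupling (7153).

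There were 5 genes that differed between locked and running males by a test of the difference itself, (MH minus MC) minus (MHE minus MCE) on the log2 scale, in limma with Benjamini-Hochberg adjustment over 14321 genes. The differences were -1.61 for Senp3 (adjusted p = 0.0108), -5.74 for Ins1 (0.0242), 0.90 for Cd59a (0.0273), 0.44 for Slc25a11 (0.0319) and -0.60 for Inpp5k (0.0414).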

How the results depend on the processing

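The 60 genes called between MH and MC became 32 with upper-quartile factors, 217 with DESeq2, 38 without a filter, 38 in a fit of only the 14 mice, 165 in a fit of all 56, 375 with quality weights, 4 with the liver marker mean as covariate, 631 without MH8 and MH12 and 4 without MH9 and MH24. Leaving out 1 mouse gave 6 to 304. DESeq2 size factors gave 57, edgeR's quasi-likelihood test 43, 32 of them among the 60. All 60 genes kept their sign in every fit that tested them, and 32 were called by limma, edgeR and DESeq2 alike. The split of calls into higher and lower was 22 and 38, but 26 and 17 with quasi-likelihood, 16 and 16 with upper-quartile factors, 14 and 24 without a filter and 124 and 93 with DESeq2. The median of the 24 liver markers was 1.37 with quasi-likelihood and 1.37 with DESeq2, and 0.19 with the covariate, which is made of these same markers. The sex interaction had 1 call, Mybph, without MH8 and MH12. The wheel interaction had 0 calls with quasi-likelihood, 13 with DESeq2, 0 without MH8 and MH12 and 1 to 6 when 1 mouse was left out. Of 53 list medians 34 kept their sign under every alternative, and none changed it under another scaling. Pairs of a named or called gene and an alternative were also sorted. In 799 pairs the call was lost, and in 72 a call was gained with the same sign. In 174 pairs a gene not called in the main fit moved by more than its SE. The other 6893 pairs kept the call or, for genes not called, moved by no more than the SE. A reversal of sign was looked for only in genes called in the main fit, and none was found. The cause of these changes was not tested. No paired analysis was possible because the MC and MH mice share no replicate number. Genes with few counts, Cyp4a12a and Elovl3 among them, carry large counting error.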
